A study of Homo sapiens with 15 samples.

Results

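The insulin-like growth factor (IGF) axis was described here through 10 of the 19775 genes that the array annotation names singly: the binding proteins IGFBP2, IGFBP3, IGFBP4, IGFBP5, IGFBP6 and IGFBP7, the receptors IGF1R and IGF2R, and the adaptors IRS1 and IRS2. They were chosen by a measured value: the deposited level of IGFBP6 was higher without folate than in every folate-fed condition, and that pattern is given as a description. All probe sets (groups of short probes that read 1 transcript) carrying 1 of these symbols were used, 27 of 54613 on the array. Of these, 14 reached a mean log2 level of 6.60, the median over all probe sets, in at least 1 RNA extract and entered the tests with 30127 probe sets in all. The 14 cover 9 genes, since no IGF1R probe set reached that level.

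SKOV3ip1 is a human epithelial ovarian cancer cell line. Its cells were kept for 7 days in medium without folate, titled no MTF, or in medium with folic acid at a physiological level, written as 2 to 10 nm and titled 5-MTF or MTF. For the last 24 hours, separate folate-fed cultures received the 003 antibody, the MORAb003 antibody or the control antibody 004, and another received none. MORAb-003 binds folate receptor alpha, and whether 003 is the same preparation as MORAb003 is not stated.

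The groups are the no-folate extract, the 003 extract, the MORAb003 extract, the 004 extract and the folate extract. Each was 1 culture and 1 RNA extraction, and 3 aliquots of that RNA were hybridised, for 15 arrays. A difference that passes the test is thus larger than the spread between hybridisations of 1 extract, and the spread between cultures was not measured.

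IGFs are secreted hormones that signal through the receptor tyrosine kinase IGF1R. The binding proteins hold IGFs outside the cell, where proteases can release them, and IGFBP6 is known for its preference for IGF2. IGF2R clears IGF2 and carries lysosomal enzymes, and IRS1 and IRS2 pass the signal of the IGF and insulin receptors on to PI3-kinase and AKT. AKT keeps FOXO transcription factors out of the nucleus, and IRS2 is a known FOXO target in liver.

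The promoters of IGFBP6 and IRS2 are shown because IGFBP6 is the member by which the axis was chosen and IRS2 had the largest difference between antibody-treated and untreated folate-fed cells among the 14 probe sets. Each is the 250 bases before the gene's start in RefSeq on GRCh38.p14, printed 5′ to 3′ on the gene's strand. Capitals mark the FOXO motif GTAAACA (or TGTTTAC on the other strand), the insulin response motif TGTTTTG (or CAAAACA) and the GC box GGGCGG (or CCGCCC), with neighbouring or overlapping matches run together.
IGFBP6, chr12:53097417-53097666, plus strand: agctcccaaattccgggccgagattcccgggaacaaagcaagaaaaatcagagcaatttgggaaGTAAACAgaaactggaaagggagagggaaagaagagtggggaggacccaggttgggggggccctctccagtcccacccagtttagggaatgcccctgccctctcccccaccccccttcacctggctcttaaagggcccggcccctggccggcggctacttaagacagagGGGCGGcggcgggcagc
IRS2, chr13:109786584-109786833, minus strand: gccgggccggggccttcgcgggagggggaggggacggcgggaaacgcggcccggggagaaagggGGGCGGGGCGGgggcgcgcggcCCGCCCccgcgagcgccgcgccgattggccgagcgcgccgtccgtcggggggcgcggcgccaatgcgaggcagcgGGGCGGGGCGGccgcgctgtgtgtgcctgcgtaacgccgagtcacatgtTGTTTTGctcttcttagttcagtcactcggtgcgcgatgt
The IGFBP6 window held 1 FOXO motif and 1 GC box, with 9 CpG dinucleotides and 61.2% G and C. The IRS2 window held 1 insulin response motif and 5 GC boxes, with 42 CpG and 76.4% G and C. Of 35116 promoter windows of this length, 2.98% held the FOXO motif, 4.3% the insulin response motif and 42.6% a GC box, and 1.38% had as many CpG as IRS2. A match to these letters describes the sequence and was not tested for function.

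IGFBP6 has 1 probe set, 203851_at. The deposited log2 levels, in which 1 unit is a 2-fold difference, were 8.13, 7.93 and 8.03 in the 3 arrays of the no-folate extract. They were 7.43, 7.43 and 7.38 in 003, 7.43, 7.50 and 7.41 in MORAb003, 7.26, 7.18 and 7.62 in 004, and 7.28, 7.34 and 7.29 in folate. All 3 no-folate arrays lay above all 12 folate-fed arrays. The other 4 extracts overlapped their neighbours in the order of means, which ran from MORAb003 through 003 and 004 to folate.

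**Figure D1:**
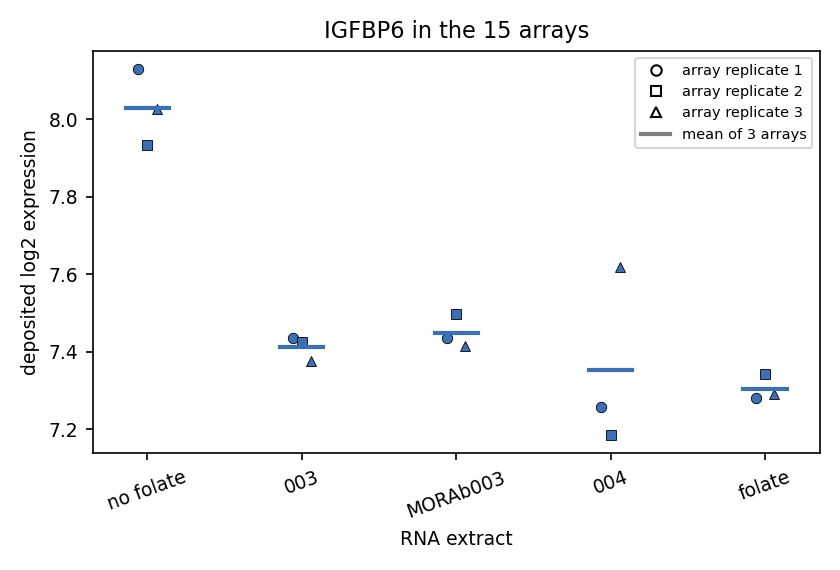
Deposited log2 expression of IGFBP6 (vertical axis) in the 15 arrays, by RNA extract (horizontal axis), with points for single arrays and bars for the mean of 3. The no-folate arrays sit between 7.93 and 8.13, and every other array is at 7.62 or lower.

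The no-folate mean of 8.03 ± 0.10 exceeded the folate mean of 7.30 ± 0.03 by 0.73 (SD, n = 3 arrays each). It exceeded the 004 mean of 7.35 ± 0.23 by 0.68, the 003 mean of 7.41 ± 0.03 by 0.62 and the MORAb003 mean of 7.45 ± 0.04 by 0.58. The first 3 of these differences lay just above the 1.5-fold limit used for calls (0.58 on the log2 scale), and the one from MORAb003 lay just under it. The first of the 2 dates in the array names held 2 arrays of each extract, and the second held 1. The second value within the dates, here and below, is thus 1 array against 1 array. Taken within each date, the difference from folate was 0.72 and 0.74, that from 003 was 0.60 and 0.65, and that from MORAb003 was 0.57 and 0.61. The difference from 004 was 0.81 and 0.41. These values chose the gene and carry no test here. As in any bulk RNA, fewer expressing cells and less RNA per cell cannot be told apart.

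Among folate-fed cells, none of the 6 comparisons of IGFBP6 passed. The MORAb003 extract differed from folate by 0.14 (adjusted p = 0.41, limma with Benjamini-Hochberg adjustment) and from 004 by 0.10 (adjusted p = 0.49). The 003 extract differed from folate by 0.11 (adjusted p = 0.61) and from 004 by 0.06 (adjusted p = 0.79). These misses do not show that the levels were equal.

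The pattern of IGFBP6 over the 5 extracts was compared with that of 24972 other tested probe sets with 1 symbol, as the root mean square difference between extract means, each centred on its own mean. The closest was N4BP2L2 (214753_at), at 0.03, with mean log2 levels of 7.26 in no folate, 6.67 in 003, 6.66 in MORAb003, 6.63 in 004 and 6.58 in folate. C12orf57 (224719_s_at) followed at 0.06, then PTK6 (1553114_a_at) at 0.06, LSM11 (226819_at) at 0.08 and ATM (210858_x_at) at 0.08. In all, 21 probe sets lay within 0.1 of IGFBP6, over 5 extracts.

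Several features of the whole series touch the values that follow. The actin control sets, which read the 3′ and 5′ ends of 1 transcript, differed by 4.09 ± 0.16 in no folate, 4.02 ± 0.10 in 003, 2.42 ± 0.13 in MORAb003, 3.46 ± 0.31 in 004 and 3.24 ± 0.13 in folate (log2, 3′ minus 5′, SD, n = 3). GAPDH gave the same split between MORAb003, at 1.21, and the others, at 1.97 to 2.49. Replicate 1 of the 004 extract stood apart: its correlation with the other 004 arrays was at most 0.95, and its 90th percentile was 9.05 against 9.74 and 9.75. All 11 epithelial markers were measured above the filter, with summed log2 levels of 16.25 to 16.32 in MORAb003 and 15.69 to 16.14 elsewhere. Single epithelial sets went both ways. Of 25 tested, 3 were called higher and 3 lower in MORAb003 than in 003, beside 24.9% of all probe sets called. FOLR1 (211074_at), the gene of folate receptor alpha, differed by -1.39 and PAX8 (214528_s_at) by 1.06. Other tested sets of these genes did not follow: FOLR1 204437_s_at was not called lower, and PAX8 213917_at was lower in MORAb003 than in 003. Against folate 3 epithelial sets were called higher and 0 lower, beside 6.06% of all called higher. Of fibroblast and endothelial markers, 9 of 11 passed the filter (COL3A1 and LUM did not), with sums of 10.96 to 11.05 in MORAb003 and 11.01 to 11.28 elsewhere. Single sets of this list did not follow the sum: ACTA2 (200974_at) was higher in MORAb003 than in folate by 0.67 (adjusted p = 0.024, limma), and COL1A1 was 1.23 above 003 in 1556499_s_at and differed by -0.63 in 202312_s_at. Of 5 leukocyte markers only CD3E passed, with sums of 8.57 to 8.90.

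All differences are on the log2 scale. A probe set was called when its adjusted p was under 0.05 and its difference at least 1.5-fold. MORAb003 against folate called 1 of the 14 member probe sets, IRS2 209185_s_at, beside 7.81% of all probe sets. MORAb003 against 004 called 2, IGF2R 201393_s_at and IRS2 209185_s_at, beside 20.1% of all. Without 004 replicate 1, the same count was 2, beside 13.1%. MORAb003 against 003 called 3, IGFBP3 212143_s_at, IGF2R 201393_s_at and IRS2 209185_s_at, beside 24.9%. These shares lie near the background, and the member counts are therefore no result about the axis as a whole.

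The 003 antibody against folate called 0 of 14 by limma, beside 2.23% of all, with 3 members under an unadjusted p of 0.05 beside 6270 of all 30127 probe sets (20.8%). Without 004 replicate 1 it called 1, IGFBP3 212143_s_at, beside 6.89%. Against 004 it called 1, IRS2 209184_s_at, beside 3.54%, and without 004 replicate 1 it called IGFBP3 212143_s_at instead, beside 6.35%. The control antibody 004 against folate called 0 of 14, beside 0% of all 30127 probe sets, with 2 members and 2680 probe sets under an unadjusted p of 0.05. The median member difference was 0.01 for MORAb003 against folate (all probe sets -0.04), 0.06 for MORAb003 against 004 (0.01), -0.10 for MORAb003 against 003 (-0.10), 0.08 for 003 against folate (0.04) and 0.08 for 003 against 004 (0.06). Of all calls for MORAb003 against folate, 77.6% were higher as deposited and 66.3% after quantile normalization. The same share was 87.8% as deposited and 70.9% after it for MORAb003 against 004, and 83.8% and 64.5% for 003 against 004.

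The comparisons with no folate share the contrast that chose the axis and are given as description, from which nothing is read. No folate against folate put 1 member past both limits, IGFBP6 by its choice (3.96% of all), and against 003 also IGFBP6 alone (0.139%), which held in 9 of 29 settings. Against 004 there were 3, IGFBP6, IGF2R 201392_s_at and IRS2 209184_s_at (6.53%). Without 004 replicate 1, IGF2R 201392_s_at was no longer among them, at 0.52, and IGFBP3 212143_s_at entered as lower, at -0.66. Against MORAb003 there were 4 of the 14, with IRS2 209184_s_at higher and IGFBP3 212143_s_at, IGF2R 201393_s_at and IRS2 209185_s_at lower (22.1%). Of these, IGF2R 201393_s_at, at -0.66, was lost in 10 of 29 settings, among them quantile normalization, at -0.50, and leaving out any 1 of the no-folate arrays, at -0.56 to -0.72. Of all no-folate calls against 004, 85.8% were higher as deposited and 70.8% after quantile normalization.

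**Figure D2:**
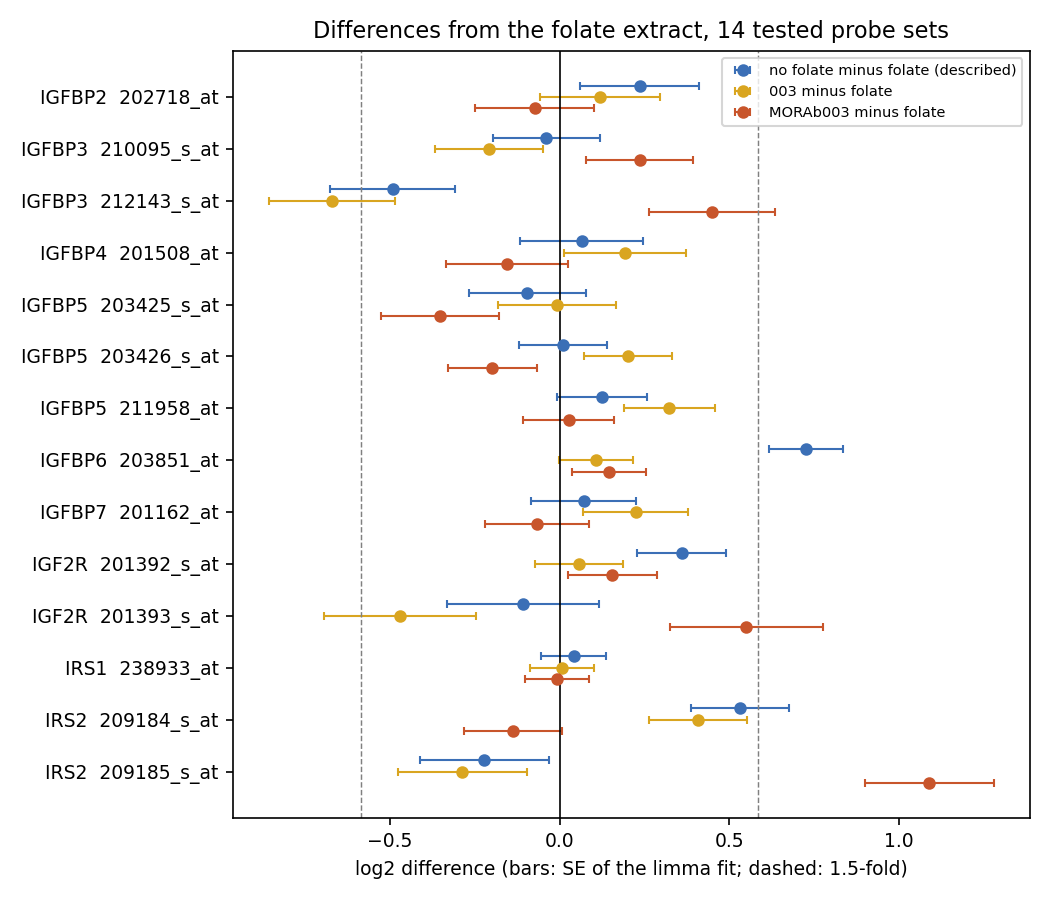
Log2 difference from the folate extract (horizontal axis, bars for the standard error of the limma fit, dashed lines at 1.5-fold) for the 14 tested probe sets (vertical axis), in the no-folate, 003 and MORAb003 extracts. IRS2 209185_s_at in MORAb003, at 1.09, and IGFBP6 without folate, at 0.73, lie beyond the right dashed line, and IGFBP3 212143_s_at in 003, at -0.67, lies beyond the left one without passing the test.

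IGFBP3, the main carrier of IGFs in blood, was read by 2 tested probe sets. The levels of 212143_s_at were 9.02, 9.02 and 9.03 in no folate, 8.88, 8.88 and 8.77 in 003, 9.93, 10.11 and 9.85 in MORAb003, 8.83, 9.76 and 9.60 in 004, and 9.70, 9.34 and 9.50 in folate. All 3 MORAb003 arrays lay above every other array, and the 003 arrays lay below those of no folate and of folate. IGFBP3 was higher in MORAb003 than in 003 by 1.12 (adjusted p = 0.00039, limma), and by 1.14 and 1.08 within the 2 dates. The difference of MORAb003 from folate was 0.45 (adjusted p = 0.13), and that from 004 was 0.56 (adjusted p = 0.030), under the fold limit. The 003 extract differed from folate by -0.67 (adjusted p = 0.064) and from 004 by -0.55 (adjusted p = 0.092). Without 004 replicate 1 both passed, at -0.67 and -0.84, and without 004 replicate 2 the difference from folate passed, also at -0.67. The no-folate mean of 9.02 ± 0.01 differed from the folate mean of 9.52 ± 0.18 by -0.49.

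The other IGFBP3 set, 210095_s_at, moved less. Its means were 11.49 ± 0.08 in no folate, 11.33 ± 0.06 in 003, 11.77 ± 0.09 in MORAb003, 11.41 ± 0.40 in 004 and 11.53 ± 0.16 in folate. MORAb003 differed from 003 by 0.44 (adjusted p = 0.035, limma), under the fold limit, and from folate by 0.24 (adjusted p = 0.35).

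The remaining binding proteins gave no call in any of the 10 comparisons. IGFBP2 (202718_at) had means of 8.95 ± 0.11 in no folate, 8.84 ± 0.08 in 003, 8.64 ± 0.14 in MORAb003, 8.63 ± 0.48 in 004 and 8.72 ± 0.02 in folate. IGFBP4 (201508_at), which binds IGFs until the protease PAPPA cuts it, lay between 6.47 in MORAb003 and 6.82 in 003. IGFBP7 (201162_at), a relative that binds IGFs weakly, lay between 8.09 in MORAb003 and 8.38 in 003.

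IGFBP5, a binding protein that also attaches to the extracellular matrix, had 3 tested sets of 6. The means of 203426_s_at were 7.11 ± 0.16 in no folate, 7.31 ± 0.26 in 003, 6.91 ± 0.07 in MORAb003, 7.16 ± 0.08 in 004 and 7.10 ± 0.12 in folate. Its difference of MORAb003 from 003 was -0.40 (adjusted p = 0.023, limma), under the fold limit. The sets 203425_s_at and 211958_at gave -0.35 and -0.30 for the same comparison, and MORAb003 was the lowest extract in 203426_s_at and 203425_s_at and next to folate, the lowest, in 211958_at.

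IGF1R, the receptor that carries the IGF signal, had 5 probe sets, all below the filter, with extract means from 4.86 to 6.52. No comparison of IGF1R was tested. IGF2R had 2 tested sets, and a further set, 1569052_at, lay between 5.08 and 5.27.

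The levels of IGF2R 201393_s_at were 9.01, 8.70 and 8.97 in no folate, 8.63, 8.29 and 8.68 in 003, 9.50, 9.79 and 9.37 in MORAb003, 7.88, 8.87 and 8.88 in 004, and 9.15, 8.88 and 8.98 in folate. The MORAb003 arrays lay above all others, and 004 replicate 1 lay below all others. MORAb003 was higher than 003 by 1.02 (adjusted p = 0.0027, limma) and than 004 by 1.01 (adjusted p = 0.0048), or 0.68 without 004 replicate 1, which still passed. Leaving out replicate 2 of every extract lost both calls, at 0.78 and 1.06. Within the 2 dates, the difference from 003 was 1.18 and 0.69 and that from 004 was 1.27 and 0.49. From folate MORAb003 differed by 0.55 (adjusted p = 0.12).

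The second set, 201392_s_at, had means of 8.19 ± 0.07 in no folate, 7.89 ± 0.22 in 003, 7.98 ± 0.08 in MORAb003, 7.53 ± 0.24 in 004 and 7.83 ± 0.07 in folate. Here no folate was the highest extract, and MORAb003 differed from 003 by 0.10. MORAb003 differed from 004 by 0.45 (adjusted p = 0.017, limma), under the fold limit.

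IRS1 had 1 tested set of 3, 238933_at, with means of 7.70 ± 0.03 in no folate, 7.67 ± 0.02 in 003, 7.66 ± 0.09 in MORAb003, 7.71 ± 0.07 in 004 and 7.66 ± 0.15 in folate. All neighbouring extracts overlapped in this set. Below the filter, 204686_at had its highest mean in MORAb003, at 6.50, and its lowest in no folate, at 5.78, and was not tested.

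IRS2 gave the largest change of the axis under an antibody, in the probe set 209185_s_at. The levels of 209185_s_at were 10.09, 10.07 and 10.17 in no folate, 10.04, 9.93 and 10.17 in 003, 11.34, 11.57 and 11.36 in MORAb003, 9.24, 10.21 and 10.10 in 004, and 10.39, 10.24 and 10.37 in folate. The 3 MORAb003 arrays lay above the other 12 by a clear gap. In 209185_s_at, IRS2 rose in MORAb003 by 1.09 over folate (adjusted p = 0.0025, limma). The rise was 1.57 over 004 (adjusted p = 0.00012, limma) and 1.38 over 003 (adjusted p = 1e-04). Without 004 replicate 1 the rise over 004 was 1.27. Leaving out replicate 2 or replicate 3 of every extract lost the call over folate, at 0.97 and 1.14. Within the 2 dates, the rise was 1.14 and 0.99 over folate, 1.73 and 1.26 over 004, and 1.47 and 1.19 over 003. The second date held 1 array per extract. The 003 extract differed from folate by -0.29 and from 004 by 0.20, and neither difference passed.

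The second IRS2 set, 209184_s_at, had a different order. Its levels were 9.54, 9.60 and 9.39 in no folate, 9.44, 9.30 and 9.43 in 003, 8.86, 8.89 and 8.78 in MORAb003, 8.26, 8.93 and 8.87 in 004, and 8.94, 9.02 and 8.97 in folate. The no-folate and 003 arrays lay above those of the other 3 extracts, and MORAb003 overlapped 004. MORAb003 differed from folate by -0.14 (adjusted p = 0.56, limma), from 004 by 0.16 (adjusted p = 0.40) and from 003 by -0.55 (adjusted p = 0.0078), under the fold limit. The 003 extract was higher than 004 by 0.70 (adjusted p = 0.016), a call lost at 0.49 without 004 replicate 1 and at 0.68 without 003 replicate 1 or 003 replicate 3. Within the dates the difference was 0.78 and 0.55. The no-folate mean of 9.51 ± 0.11 was 0.53 above the folate mean of 8.98 ± 0.04.

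The disagreement between both sets of a gene was measured within each array, which removes what an array does to the whole gene. For IRS2, 209185_s_at minus 209184_s_at was 0.60 ± 0.16 in no folate, 0.66 ± 0.07 in 003, 2.58 ± 0.10 in MORAb003, 1.16 ± 0.16 in 004 and 1.35 ± 0.12 in folate. This gap was larger in MORAb003 than in folate by 1.23 (adjusted p = 2.7e-05 over 17268 such pairs, limma), than in 004 by 1.42 (adjusted p = 9.24e-06) or 1.33 without 004 replicate 1, and than in 003 by 1.92 (adjusted p = 2.22e-07). In 003 it differed from folate by -0.70 (adjusted p = 0.00448). A single statement that IRS2 RNA rose or did not rise with MORAb003 therefore depends on the probe set.

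For IGF2R, 201393_s_at minus 201392_s_at was 0.71 ± 0.13 in no folate, 0.65 ± 0.08 in 003, 1.57 ± 0.14 in MORAb003, 1.01 ± 0.34 in 004 and 1.17 ± 0.13 in folate, and was larger in MORAb003 than in 003 by 0.92 (adjusted p = 0.000328, limma). For IGFBP3, 210095_s_at minus 212143_s_at was 2.47 ± 0.08 in no folate, 2.48 ± 0.06 in 003, 1.80 ± 0.05 in MORAb003, 2.01 ± 0.11 in 004 and 2.02 ± 0.03 in folate. MORAb003 differed from 003 by -0.68 (adjusted p = 9.06e-05).

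The 6 pairs of tested sets of 1 member gene gave 1 call for MORAb003 against folate, beside 15% of all pairs, and 1 against 004, beside 26.4%. They gave 3 calls for MORAb003 against 003, beside 29.1%, and 1 for 003 against folate, beside 5.41%. There were 0 calls for 003 against 004, beside 6.29%, or 1 without 004 replicate 1, beside 9.42%, where the IRS2 pair differed by -0.59 (adjusted p = 0.0028, limma). There were 0 calls for 004 against folate, beside 0%. The 3 pairs of IGFBP5 gave no call in these comparisons.

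In all 3 genes MORAb003 stood at one end of the pair difference, no folate and 003 at the other, and 004 and folate between them. The actin 3′ minus 5′ difference split the extracts in the same way, with 2.42 in MORAb003, 4.02 and 4.09 in 003 and no folate, and 3.24 to 3.46 in folate and 004. Its part in the IRS2, IGF2R and IGFBP3 differences was not tested.

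**Figure D3:**
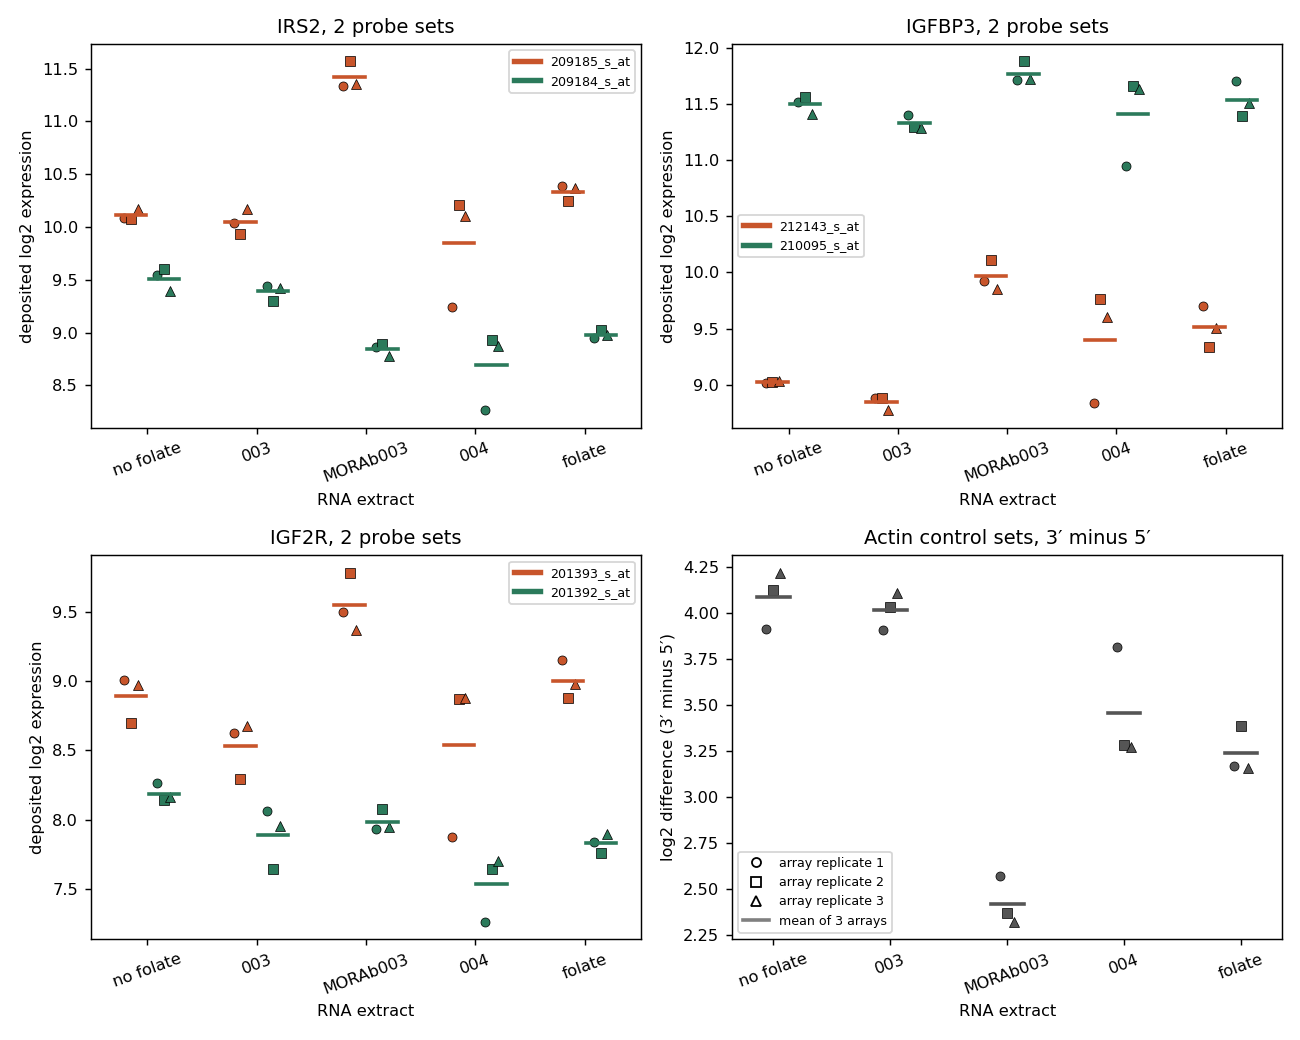
Deposited log2 expression (vertical axes) of both tested probe sets of IRS2, IGFBP3 and IGF2R by RNA extract (horizontal axes), and the log2 difference between the 3′ and 5′ actin control sets; points are arrays and bars are means of 3. In each gene, orange marks the set with the larger difference of MORAb003 from 003. The orange sets are highest in MORAb003, with 11.42 for IRS2, 9.96 for IGFBP3 and 9.55 for IGF2R, where the actin difference is lowest at 2.42.

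Other genes of the pathway were described by lists. Of IGF and insulin ligands and receptors, 4 of 5 genes had a probe set with 1 symbol and 6 sets were tested. MORAb003 called 0 of 6 against folate, beside 7.81% of all probe sets, and 1 against 004, beside 20.1%. The latter was the insulin receptor INSR (213792_s_at), at 0.99, which was 0.55 and not called without 004 replicate 1. Among 14 tested sets of IGF carriers and proteases, MORAb003 called 1 higher than folate and 0 lower, beside 6.06% of all probe sets called higher. It was STC1 (204597_x_at), stanniocalcin 1, an inhibitor of the IGFBP protease PAPPA, at 1.31 (adjusted p = 0.0026, limma). STC1 was also higher than in 004, by 1.62, and than in 003, by 1.46, and its extract means were 7.72 in MORAb003, 6.26 in 003, 6.10 in 004 and 6.41 in folate. Against 004, 2 further sets were called lower, IGFALS (215712_s_at), a carrier subunit of the circulating IGF complex, at -0.83, and PAPPA2 (211918_x_at), a protease of IGF-binding proteins, at -0.70. Neither was called without 004 replicate 1, at -0.42 and -0.53. The other tested STC1 set, 204595_s_at, differed by 0.42 from folate and was not called. HTRA1, a serine protease that cleaves IGF-binding proteins, was higher in MORAb003 than in 003 by 0.64 (adjusted p = 0.00094).

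Among 26 tested sets of adaptors and feedback regulators, MORAb003 called 4 higher and 0 lower than folate, beside 6.06% of all probe sets called higher, with a median of 0.00 against -0.04 over all probe sets. SOCS3 (227697_at), a cytokine-induced inhibitor of receptor signalling, rose by 1.13 (adjusted p = 0.00015, limma). PTPN11, the phosphatase SHP2, rose by 0.89 and 0.86 in 2 sets, and SOCS2 by 0.61. The remaining tested PTPN11 set, 212610_at, was not called. The other 2 tested SOCS3 sets, 206359_at and 206360_s_at, differed from folate by 0.07 and -0.32, and neither was called. Against 004 the counts were 5 higher and 1 lower, or 3 and 0 without 004 replicate 1, and against 003 they were 6 and 0. These 6 calls of 26 each time lie near the background of 20.1% against 004 and 24.9% against 003. The 003 extract called 0 of these 26 against folate, beside 2.23% of all probe sets.

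The PI3-kinase, AKT and mTOR core had 34 tested sets of 15 genes, of 19 listed. MORAb003 called 3 higher than folate and 0 lower (6 and 0 without 004 replicate 1), with a median of 0.03. This count of 3 in 34 lies near the 6.06% of all probe sets called higher. Calls in either direction were 7.81% of all, or 11.3% without 004 replicate 1. RICTOR (228248_at), a subunit of mTOR complex 2, rose by 0.91 (adjusted p = 0.00074, limma), and GSK3B, a kinase that AKT inhibits, by 0.77 and 0.72. In the fit of all arrays, the other tested sets, RICTOR 226312_at and GSK3B 209945_s_at and 240562_at, were not called. The 003 extract called 0 higher and 1 lower than folate, beside 1.75% of all probe sets called lower. It was the S6 kinase RPS6KB1 (211578_s_at), which fell by 0.73 (adjusted p = 0.018, limma). The RPS6KB1 sets 204171_at and 226660_at were not called in this comparison. Without 004 replicate 1 the list had 5 lower, where calls in either direction were 6.89% of all probe sets. No folate called 1 higher and 1 lower than folate, beside 3.96% of all probe sets called. EIF4EBP1, a translation repressor that mTOR phosphorylates, was 0.78 higher, and RPS6KB1 (211578_s_at) differed by -0.99.

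FOXO factors and their targets had 38 tested sets of 16 genes. MORAb003 called 9 higher than folate and 0 lower, or 12 and 0 without 004 replicate 1, with a median of 0.31 against -0.04 over all probe sets. Over all probe sets tested, 6.06% were called higher in this comparison. Calls in either direction were 7.81% of all, or 11.3% without 004 replicate 1. SESN3 (225123_at), a stress-induced inhibitor of mTOR complex 1, rose by 1.46 (adjusted p = 0.0042, limma). CCNG2 (211559_s_at), the growth-restraining cyclin G2, rose by 1.37 (adjusted p = 0.0014), and TXNIP (201010_s_at), which limits glucose uptake, rose by 1.14 (adjusted p = 0.00036). Of the 5 tested CCNG2 sets, 211559_s_at was the only one called in this comparison. Against 004 the counts were 17 higher and 2 lower (12 and 1 without 004 replicate 1), and against 003 they were 15 and 3. Of all probe sets, 17.6% were called higher than 004 and 17.3% higher than 003. Calls in either direction against 004 were 20.1% of all, or 13.1% without 004 replicate 1.

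The 003 extract called 0 FOXO-list sets higher and 3 lower than folate, all of them CCNG2, beside 1.75% of all probe sets called lower. Without 004 replicate 1 there were 6 lower. Calls in either direction then made up 6.89% of all probe sets, against 2.23% with that array. CCNG2 fell by 2.01 in 202770_s_at (adjusted p = 0.0068, limma), fell by 1.59 in 211559_s_at (adjusted p = 0.0055) and fell by 1.18 in 202769_at (adjusted p = 0.0064). Against 004, 003 called 1 set of the list higher and 3 lower, beside 3.54% of all probe sets. Without 004 replicate 1 the counts were 0 and 5, beside 6.35%. The higher set was another TXNIP set, 201008_s_at, at 0.82 (adjusted p = 0.029, limma), or 0.51 and not called without 004 replicate 1. For 202770_s_at the extract means were 7.70 in no folate, 7.28 in 003, 10.12 in MORAb003, 8.62 in 004 and 9.29 in folate. MORAb003 was higher than 003 by 2.84 in this set (adjusted p = 1.7e-05), and its own difference from folate was 0.83 (adjusted p = 0.083). MORAb003 was again at one end and no folate and 003 at the other, as in the actin difference, whose part in the counts of these lists was not tested. No folate called 0 sets of the list higher and 3 lower than folate, CCNG2 at -1.59 and -1.49 and TXNIP (201010_s_at) at -1.06. The other tested sets of CCNG2 and TXNIP were not called there. Of all 30127 probe sets, 686 were called lower in that comparison.

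The IGF2 mRNA-binding proteins, which hold IGF2 and other transcripts, had 7 tested sets. The 003 extract called 1 lower than folate, beside 1.75% of all probe sets called lower. It was IGF2BP3 (203820_s_at), at -0.67 (adjusted p = 0.047, limma). MORAb003 called 2 higher than 003, both IGF2BP3, at 1.07 and 0.64, beside 17.3% of all probe sets called higher. Against folate it called 0, beside 7.81% of all.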

How the data were processed

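Total RNA was isolated with Trizol and hybridised as biotinylated cRNA to Affymetrix U133 Plus 2.0 arrays, per the labels' protocols. For each probe set the authors deposited a log2 level on 1 scale for all arrays (4.00 to 15.5, array medians 6.53 to 6.67). How they summarised and normalized it was not given in the sources used here. Arrays carry no read depth, and their number, 3 per extract, limits the precision. Of 54675 probe sets, 62 control sets were left out, 41091 had 1 gene symbol in the platform annotation, 1801 had several and 11721 had none.

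Groups were taken from the sample titles. One linear model over the 15 arrays was fitted with limma 3.58.1 in R 4.3.3 (lmFit, contrasts, eBayes), with 10 residual degrees of freedom, to the 30127 probe sets above the filter, and p-values were adjusted by Benjamini-Hochberg over all of them. The code was tested on simulated data. Within-gene pairs of sets were fitted in the same way; that fit was chosen after seeing the data. The members, lists and tests were chosen with earlier results of these data known. Every member set was accounted for; in each list and comparison up to 3 called sets with the largest absolute difference could be named, any list gene could serve as a further example, and the 5 sets closest to IGFBP6 were named. SOCS2 was named outside that rule, after its values were seen, to complete a count. Alternatives were quantile normalization, no or a stricter filter, the brightest set of each gene, other fold limits, a trended robust prior, blocks for replicate number or date, 1 date, only the arrays compared, and leaving out arrays.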

Additional observations from a re-analysis of the deposited data

Results flagged for a closer look

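Member probe sets below the filter were not tested. Of these 13, 2 were higher in all 3 MORAb003 arrays than in all 6 arrays of the 004 and folate extracts, beside 1238 of all 24486 probe sets below the filter (5.06%). IGFBP7 201163_s_at lay between 5.06 and 5.55 in MORAb003, against 4.46 to 4.73 in the 004 and folate arrays, a difference of means of 0.60. IRS1 204686_at lay between 6.34 and 6.70 in MORAb003, against 4.98 to 6.31 in the 004 and folate arrays, a difference of means of 0.61. The tested sets of both genes, IGFBP7 201162_at and IRS1 238933_at, gave no call in any comparison.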

How the results depend on the processing

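The 14 member sets were recounted in the 10 comparisons under each alternative; omitting the filter or using a trended robust prior moved no count by over 1.5 times. Quantile normalization gave 2 calls for 003 minus 004, in place of 1. The filter at the 75th percentile gave 1 for 003 minus folate, in place of 0, and 0 for no folate minus 003, in place of 1. The brightest set of each gene gave 0 for 003 minus 004, 1 for no folate minus 004 and 2 for no folate minus MORAb003, in place of 1, 3 and 4. Without a fold limit there were 4 calls for MORAb003 minus 004, 6 for MORAb003 minus 003 and 2 for no folate minus folate, in place of 2, 3 and 1. At 2-fold there were 0 for 003 minus 004 and for no folate minus folate, 004 and 003, and 1 for no folate minus MORAb003. On the first date only there were 0 for MORAb003 minus folate, 003 minus 004, and no folate minus folate and 003, and 1 for no folate minus 004. Fitting only the 6 arrays compared gave 1 for MORAb003 minus 004 and 003 minus folate, and 0 for 003 minus 004 and no folate minus 004. The cause of these moves was not tested, apart from the fewer sets or arrays that some settings hold. Leaving out 1 array, or 1 replicate number throughout, gave 0 to 2 calls for MORAb003 minus folate, 1 to 3 minus 004 and 2 to 4 minus 003, 0 to 1 for 003 minus folate and 003 minus 004, and 0 to 0 for 004 minus folate. It gave 0 to 1 for no folate minus folate, 0 to 3 minus 004, 0 to 1 minus 003 and 2 to 4 minus MORAb003. IRS2 209185_s_at in MORAb003 was called in 29 of 29 settings against 004 and 003, and in 26 of 29 against folate. There, the first date alone and leaving out replicate 2 or replicate 3 of every extract lost it. The first date alone and leaving out replicate 3 hold the same arrays, so these are not independent settings among the 29. The date block gave 0 calls for no folate minus 003. Replicate numbers did not pair the samples, since deviations of same-numbered arrays correlated from -0.54 to 0.50 (median -0.07, 8 of 30 over 0.1); the replicate block gave 0 calls for no folate minus 003, in place of 1, and moved no other count by over 1.5 times. Of 3955 values of single sets, 0 called values reversed, 69 lost a call and 26 gained one. Each of the pair calls held in 19 of 19 settings, except IRS2 in 003 minus folate, held in 18 (adjusted p = 0.12 on the first date only, limma).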
